A study of Mus musculus with 20 samples.

Results

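The 10 genes described here mark T cells and regulatory T cells, and they were followed by messenger RNA sequencing of the mouse distal colon. They are *Cd3e*, *Cd4*, *Cd8a*, *Itgae*, *Gzma*, *Gzmb*, *Foxp3*, *Il2ra*, *Ctla4* and *Il10*. They were chosen by name and matched by Ensembl identifier to the GENCODE mouse annotation, and all 10 were among the 26619 genes of the deposited count table. The study asked how resistant potato starch (RPS), which the sample labels call raw potato starch, acts in C57BL/6 mice that eat the Total Western Diet (TWD), a rodent diet built on typical American nutrient intakes. All 20 mice ate the TWD for 6 weeks, and the groups of 5 mice then ate the TWD with 0%, 2%, 5% or 10% RPS for a further 3 weeks. The 0% RPS mice, on the TWD alone, were the controls. A piece of whole distal colon near the anal end was used, so each library mixes epithelium, muscle, lymphoid tissue and every other cell of the wall. Lower levels per library can come from fewer T cells or from less of an RNA in each T cell, and bulk counts cannot tell these apart.

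T cells recognise antigen through the T cell receptor, which signals through the CD3 chains, one of which *Cd3e* encodes. The coreceptors CD4 and CD8 mark helper and cytotoxic lineages, and many T cells within the gut epithelium carry the integrin chain that *Itgae* encodes and kill with granzymes. Regulatory T cells restrain immune responses to food and microbes in the colon, depend on the transcription factor FOXP3, and use the interleukin 2 receptor, CTLA4 and interleukin 10. Butyrate, which colonic bacteria make from fermented starch, is known to favour regulatory T cell differentiation in mice.

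Library depth, the sum of counts per library, differed by diet, at 31254832 to 34974230 counts on 0% RPS and 18429493 to 26595092 counts on 10% RPS. Values below are CPM, counts scaled to a common library total after correction between libraries, and the 3 counts taken as the detection floor are worth 0.0850 to 0.163 CPM. Mice RS10_717, RS10_725 and RS10_748 carry 2 labels that disagree on the diet (5% or 2%, 10% or 5%, and 2% or 10% RPS); the description label, given first, was used. The library of mouse RS10_721 on 5% RPS held 3249 CPM of 4 pancreatic enzyme genes summed and that of mouse RS10_784 on 10% RPS held 276 CPM, against at most 8.56 CPM in the others. The log2 fold changes of the 8 tested genes at 10% RPS are also given without the 3 mice with disagreeing labels and by the treatment label, and other edgeR values of these genes where such a change, or leaving out mouse RS10_721 or RS10_784, moved a printed value by over 1.5 times.

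All 10 genes were rare in this tissue. Together with *Cd3e*, the other receptor chain genes *Cd3d*, *Cd3g*, *Cd247*, *Trac*, *Trbc1* and *Trbc2* summed to 6.03 to 12.2 CPM per mouse, so T cell RNA was present in every library. Per kilobase of exon, the level was highest for *Cd4* at 1.49 ± 0.373 CPM per kb (SD over 20 mice), followed by *Itgae* at 0.623 ± 0.0981 CPM per kb. *Ctla4* (0.323), *Cd3e* (0.287), *Il10* (0.242), *Il2ra* (0.227), *Cd8a* (0.182) and *Gzmb* (0.149 CPM per kb) came next, and *Foxp3* (0.0810) and *Gzma* (0.0705 CPM per kb) were lowest. *Cd4* was above *Itgae* in 20 of 20 mice, *Itgae* above *Ctla4* in 19, and *Gzmb* above *Foxp3* in 17. Other neighbours in that order did not separate. *Ctla4* was above *Cd3e* in 9 of 20 mice, *Il10* above *Il2ra* in 10, and *Cd8a* above *Gzmb* and *Foxp3* above *Gzma* in 11 each. *Cd3e* was above *Il10* and *Il2ra* above *Cd8a* in 14 each. *Cd4* is also made by macrophages, whose markers are given beside it.

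None of the 10 genes passed the threshold in any diet comparison. The edgeR quasi-likelihood test, with Benjamini-Hochberg adjustment over 17893 genes, called a gene when its adjusted p was 0.05 or lower and, between 2 diets, its fold change was 1.5 or more. For the trend and for any difference among the diets the adjusted p alone decided. Of the 10 genes, 8 had enough counts to be tested, and the filter removed *Gzma* and *Gzmb*. At 10% RPS 0 of 8 were called, where 0.0391% of all tested genes were, and 2 of the 8 had an unadjusted p under 0.05, both higher (7.32% of tested genes). At 5% and at 2% RPS 0 of 8 were called (0% of tested genes at either level), and 0 had an unadjusted p under 0.05 (9.19% and 1.41% of tested genes). For a linear trend over RPS percent 0 of 8 were called, where 2.1% of tested genes were, and 2 had an unadjusted p under 0.05, both with a positive slope (9% of tested genes). For any difference among the diets 0 of 8 were called (0.0727% of tested genes), with 1 under an unadjusted p of 0.05 (10.6% of tested genes). DESeq2 fitted all 10 genes and called 0 in each of the 5 comparisons, where it called 0.815% of all genes at 10%, 0.112% at 5% and 0.00386% at 2% RPS, 3.76% for the trend and 1.36% for any difference. Under an unadjusted p of 0.05 it had 3 of the 10 at 10% RPS (*Foxp3*, *Ctla4* and *Il10*), 0 at 5%, 1 at 2% RPS, 3 for the trend and 0 for any difference. The shares of all genes under that p were 11.5%, 7.22%, 1.42%, 14.7% and 9.15% in the same order. At 10% RPS it gave no adjusted p for *Gzma*, *Gzmb*, *Foxp3* and *Il10*, which its own filter on low counts set aside. At 10% RPS the groups overlapped for all 10 genes, while 2.28% of tested genes had groups that did not overlap.

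**Figure D1:**
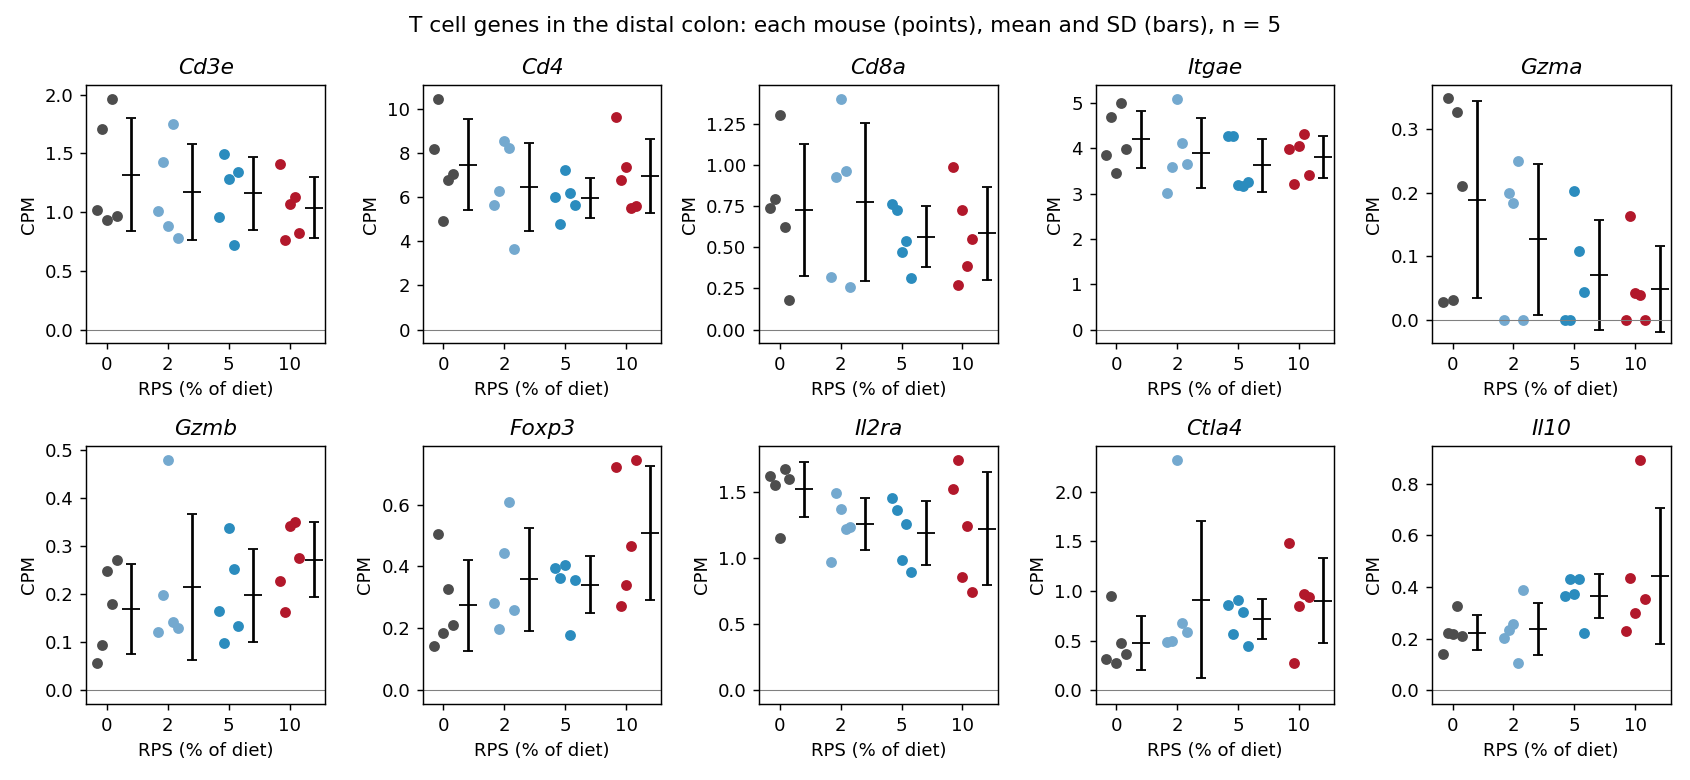
CPM of each T cell gene (vertical axis, from 0) in each mouse (points) by RPS percent of the diet (horizontal axis), with mean and SD of 5 mice (bars). *Gzmb*, *Foxp3*, *Ctla4* and *Il10* have their lowest diet mean at 0% RPS, *Cd3e*, *Cd4*, *Itgae*, *Gzma* and *Il2ra* have their highest there, and the points of 0% and 10% RPS overlap in every panel.

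*Cd3e*, the CD3 epsilon chain of the receptor complex, was at 0.932, 0.964, 1.02, 1.71 and 1.96 CPM in the 5 mice on 0% RPS and at 0.762, 0.824, 1.07, 1.13 and 1.41 CPM on 10% RPS. It was at 0.778, 0.885, 1.01, 1.42 and 1.75 CPM on 2% RPS and at 0.719, 0.958, 1.29, 1.34 and 1.49 CPM on 5% RPS. Mice RS10_703 and RS10_707 held the highest control values, and at each RPS level 1 or 2 mice were below every control and 0 above. The log2 fold change at 10% RPS was -0.34 ± 0.28 (SE), with a 95% interval of -0.91 to 0.24 and an adjusted p of 0.605 by edgeR. It was -0.46 without the 3 mice with disagreeing labels and -0.53 by the treatment label. Of the 6 other receptor chain genes 3 had a negative value, *Cd247* (-0.26), *Trbc1* (-0.11) and *Trbc2* (-0.05), and 3 a positive one, *Cd3d* (0.08), *Trac* (0.15) and *Cd3g*, which encodes the gamma chain of the same complex, at 0.59 ± 0.26 with an adjusted p of 0.3005. The 7 chain genes summed to 8.45 ± 2.11 CPM (SD, n = 5) on 0% RPS and to 8.57 ± 2.44 CPM on 10% RPS. Across the 20 mice *Cd3e* correlated with those 6 genes at r values of 0.37 (*Trbc1*) to 0.67 (*Trac*), given as a description.

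*Cd4*, the coreceptor of helper and regulatory T cells, was at 4.91, 6.78, 7.02, 8.19 and 10.4 CPM on 0% RPS and at 3.63, 5.63, 6.26, 8.23 and 8.52 CPM on 2% RPS. It was at 4.77, 5.63, 5.98, 6.18 and 7.24 CPM on 5% RPS and at 5.51, 5.61, 6.75, 7.34 and 9.62 CPM on 10% RPS. The SD within a diet, 1.72 CPM, was larger than the gap between the lowest and highest diet means, 5.96 and 7.47 CPM, and the variance was 12.2 times what counting alone gives. At 10% RPS its log2 fold change was -0.10 ± 0.21, with a 95% interval of -0.55 to 0.35 and an edgeR adjusted p of 0.871. Without mouse RS10_703, the control with the most *Cd4*, it was 0.06. It was -0.24 without the 3 mice with disagreeing labels, -0.38 by the treatment label and -0.03 without mouse RS10_784. *Cd4* varied with the 8 macrophage and dendritic cell markers over the 20 mice (r = 0.59, permutation p = 0.00593, adjusted p = 0.0755 over 50 pairs; rho = 0.65, adjusted p = 0.0255; r = 0.45 without the 2 mice farthest from the median). Those markers summed to 60.2 to 114 CPM on 0% RPS and to 62.3 to 82.8 CPM on 10% RPS, and their part in the *Cd4* values was not tested.

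*Cd8a*, the alpha chain of the CD8 coreceptor, was at 0.181, 0.625, 0.737, 0.791 and 1.30 CPM on 0% RPS and at 0.259, 0.322, 0.927, 0.966 and 1.40 CPM on 2% RPS. It was at 0.313, 0.474, 0.539, 0.729 and 0.760 CPM on 5% RPS and at 0.272, 0.388, 0.549, 0.725 and 0.989 CPM on 10% RPS. The highest value of a diet was over 2 times its lowest in every diet, and the lowest and highest controls, RS10_708 and RS10_704, spanned nearly the range of the whole study. At 10% RPS the log2 fold change was -0.29 ± 0.46, with a 95% interval of -1.24 to 0.66 and an edgeR adjusted p of 0.815, so a change of either sign and over 1.5 times in size was within the error. It was 0.03 without mouse RS10_704, -0.55 without the 3 mice with disagreeing labels and -0.72 by the treatment label. *Itgae*, the alpha E chain of the integrin that binds E-cadherin on epithelial cells, was steadier, at 3.45, 3.85, 3.98, 4.68 and 5.00 CPM on 0% RPS and 3.21, 3.41, 3.99, 4.05 and 4.31 CPM on 10% RPS. On 2% RPS it was at 3.02, 3.58, 3.66, 4.11 and 5.09 CPM and on 5% RPS at 3.16, 3.18, 3.26, 4.26 and 4.27 CPM. These ranges overlapped at every level. Its log2 fold change at 10% RPS was -0.14 ± 0.15, and the 95% interval of -0.46 to 0.18, the narrowest among the 8 genes, stayed inside a 1.5-fold change (edgeR adjusted p = 0.717). It was -0.15 without the 3 mice with disagreeing labels and -0.17 by the treatment label.

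*Gzma*, a granzyme of cytotoxic lymphocytes, was near the detection floor. Its counts were 31 over the 5 mice on 0% RPS, 18 on 2%, 10 on 5% and 5 on 10% RPS, and 0 in 6 of 20 mice. The CPM values were 0.0283, 0.0311, 0.211, 0.327 and 0.348 on 0% RPS, 0, 0, 0.184, 0.199 and 0.250 on 2%, 0, 0, 0.0446, 0.108 and 0.203 on 5% and 0, 0, 0.0388, 0.0427 and 0.163 on 10% RPS. The control mice themselves split, with 1 count in each of RS10_701 and RS10_704 and 7 to 11 counts in the other 3. Pooled over mice, 0.127 to 0.265 CPM on 0% RPS and 0.0136 to 0.0978 CPM on 10% RPS are the 95% Poisson intervals, which cover counting error only. Over mice the difference in mean CPM was -0.140, and the exact permutation test, two-sided, gave p = 0.0952 (adjusted p = 0.333 over 6 tests; the smallest p that 5 against 5 mice allow is 0.00794). Without the filter, edgeR gave a log2 fold change of -2.03 at 10% RPS (adjusted p = 0.431) and a slope of -0.21 per percent RPS (unadjusted p = 0.0318, adjusted p = 0.259). Natural killer cells also make this granzyme. Their 6 markers, innate lymphoid cell genes included, summed to 68.6 to 76.4 CPM on 0% RPS and 62.5 to 76.3 CPM on 10% RPS. Most of that sum came from *Kit* and *Rora*, at means of 52.1 and 15.6 CPM over the 20 mice. *Ncr1*, *Klrb1c* and *Klra8* averaged 0.265, 0.423 and 0.0432 CPM, with *Klra8* at 0 in 10 of 20 mice. The sum therefore says little about natural killer cells, and their part in *Gzma* was not tested.

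*Gzmb*, the granzyme that activates caspases in target cells, did not share that order. It was at 0.0567, 0.0949, 0.179, 0.249 and 0.271 CPM on 0% RPS, 0.121, 0.130, 0.143, 0.199 and 0.479 on 2%, 0.0994, 0.134, 0.165, 0.252 and 0.338 on 5% and 0.163, 0.228, 0.275, 0.341 and 0.349 on 10% RPS. On 10% RPS 3 of 5 mice were above every control. The mean difference of 0.101 CPM had an exact permutation p of 0.119 (adjusted p = 0.333 over 6 tests). The log2 ratio of *Gzma* to *Gzmb* within a library, with 0.1 CPM added to both, was -0.03 ± 0.99 (SD, n = 5) on 0% RPS and -1.39 ± 0.78 on 10% RPS. The difference of -1.36 had an exact permutation p of 0.0556 and did not pass (adjusted p = 0.278 over 15 ratio tests). Perforin (*Prf1*), which lets granzymes enter a target cell, held 96 counts over all 20 mice and was also too rare to test.

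**Figure D2:**
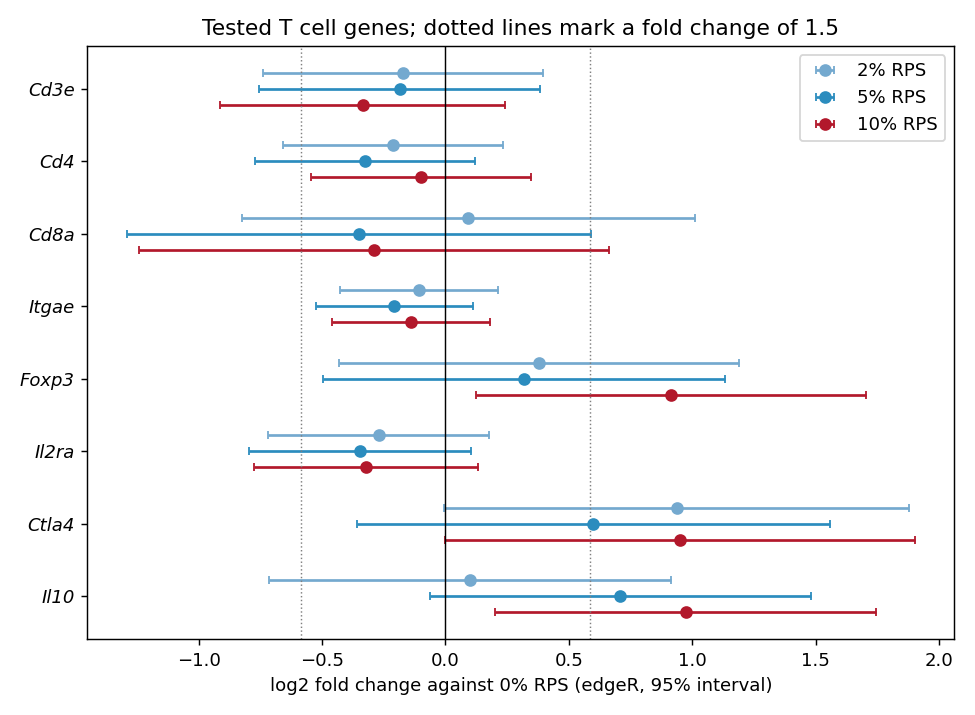
Log2 fold change against 0% RPS (horizontal axis, edgeR, points) of the 8 tested T cell genes at 2%, 5% and 10% RPS, with 95% intervals (bars) and dotted lines at a fold change of 1.5. At 10% RPS the intervals of *Foxp3* (0.12 to 1.70) and *Il10* (0.20 to 1.74) lie above 0 before adjustment, and those of *Cd3e*, *Cd4*, *Cd8a*, *Itgae*, *Il2ra* and, by a small margin, *Ctla4* span it.

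*Foxp3*, the lineage factor of regulatory T cells, was at 0.142, 0.186, 0.211, 0.327 and 0.506 CPM on 0% RPS and at 0.272, 0.341, 0.466, 0.723 and 0.745 CPM on 10% RPS. It was at 0.199, 0.259, 0.281, 0.443 and 0.608 CPM on 2% RPS and at 0.180, 0.357, 0.364, 0.397 and 0.406 CPM on 5% RPS. The lowest value on 10% RPS was above 3 of the 5 controls, but control mouse RS10_703 reached 0.506 CPM, and 2 of 5 mice on 10% RPS were above it. The counts behind these values were 5 to 19 per mouse. The log2 fold change at 10% RPS was 0.91 ± 0.38, with an edgeR unadjusted p of 0.0254 and an adjusted p of 0.255, and the slope was 0.08 ± 0.03 per percent RPS (adjusted p = 0.190). The fold change was 0.77 without the 3 mice with disagreeing labels, 0.61 by the treatment label and 0.74 without mouse RS10_784, and the slope was 0.05 by the treatment label. At 5% RPS it was 0.32 ± 0.39 (adjusted p = 0.830), 0.47 without mouse RS10_721, the lowest of that diet, and 0.56 by the treatment label. *Foxp3* shares 18.6% of its exon bases with *Flicr*, a noncoding gene on the same strand, and 12.9% with *Ccdc22* on the opposite strand, and how reads in these stretches were assigned is not given in the sources used here. *Flicr* had mean CPM of 0.109 on 0% RPS and 0.0869 on 10% RPS, and *Ccdc22* 1.58 and 1.51 CPM.

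The ratio of *Foxp3* to *Cd3e* within a library separated 10% RPS from the controls. Its log2 value, with 0.1 CPM added to each gene, was -2.27, -2.21, -1.85, -1.78 and -1.58 on 0% RPS and -1.40, -1.21, -1.12, -0.87 and -0.13 on 10% RPS. All 5 mice on 10% RPS were above all 5 controls. For single genes, 2.28% of those tested had groups that did not overlap at 10% RPS. How often ratios of other gene pairs separate in this way was not computed, and the members were chosen with earlier results of these data known. On 2% RPS the values were -2.35, -1.53, -1.39, -1.29 and -0.86, and on 5% RPS -1.78, -1.65, -1.55, -1.45 and -1.09, which overlapped the controls. The difference at 10% RPS was 0.99, from -1.94 ± 0.30 to -0.95 ± 0.50 (SD, n = 5). The exact permutation test, two-sided, gave p = 0.00794, the smallest the design allows. Its adjusted p over the 15 ratio tests was 0.119, which did not pass. With 5 mice per diet 1 ratio alone could not pass, even when all mice separated. At 5% RPS the difference was 0.43 (exact permutation p = 0.0476, adjusted p = 0.278). It was 0.97 at 10% RPS without the 3 mice with disagreeing labels and 0.79 without mouse RS10_784, the highest. With 0.5 CPM added in place of 0.1, the difference was 0.59 at 10% RPS, with all 5 mice still above all controls (exact permutation p = 0.00794, adjusted p = 0.119), and 0.25 at 5% RPS (exact permutation p = 0.103). Since *Cd3e* had a lower mean on 10% RPS, the ratio to the 7 receptor chain genes summed was added after the data were seen. It was -4.56 ± 0.33 on 0% RPS and -3.86 ± 0.49 on 10% RPS, again with all 5 mice above all controls (exact permutation p = 0.00794). Its adjusted p of 0.119 takes this ratio in place of *Foxp3* to *Cd3e* among the 15 tests. It uses the same *Foxp3* values and is no separate support. The difference of 0.69 was smaller, and without mouse RS10_784 it was 0.48 (exact permutation p = 0.0238).

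**Figure D3:**
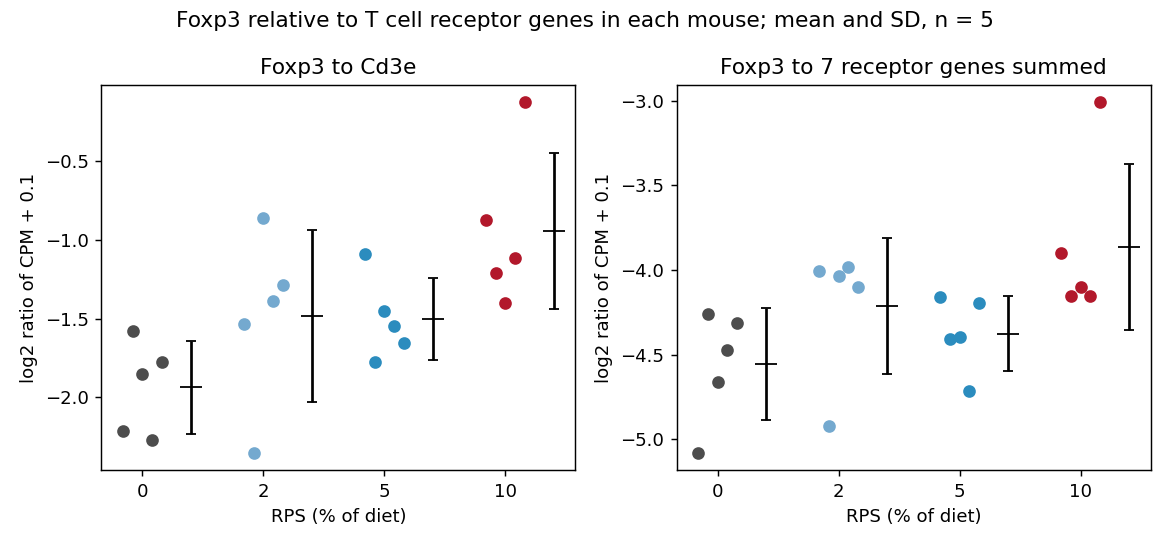
Log2 ratio of CPM + 0.1 (vertical axes) of *Foxp3* to *Cd3e* (left) and of *Foxp3* to 7 T cell receptor chain genes summed (right) in each mouse (points) by RPS percent (horizontal axis), with mean and SD of 5 mice (bars). In both panels the 5 mice on 10% RPS are above the 5 on 0% RPS, and 2% and 5% RPS lie between them in mean with overlap.

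*Il2ra*, the alpha chain of the interleukin 2 receptor, did not follow *Foxp3*. It was at 1.15, 1.55, 1.60, 1.62 and 1.67 CPM on 0% RPS and at 0.965, 1.22, 1.23, 1.36 and 1.49 CPM on 2% RPS. It was at 0.893, 0.981, 1.26, 1.36 and 1.45 CPM on 5% RPS and at 0.745, 0.853, 1.24, 1.52 and 1.74 CPM on 10% RPS. The controls were closely grouped apart from mouse RS10_704, the lowest of them, and the 10% RPS group was the widest. Its log2 fold change at 10% RPS was -0.32 ± 0.22 (95% interval -0.78 to 0.13; edgeR adjusted p = 0.511). It was -0.41 without the 3 mice with disagreeing labels, -0.39 by the treatment label and -0.18 without mouse RS10_784. *Il2ra* varied with the macrophage and dendritic cell markers over the 20 mice (r = 0.64, permutation p = 0.00232, adjusted p = 0.0755 over 50 pairs; rho = 0.67, adjusted p = 0.0255; r = 0.59 without the 2 farthest mice).

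*Ctla4*, an inhibitory receptor that regulatory T cells carry at high levels, was at 0.280, 0.312, 0.362, 0.476 and 0.949 CPM on 0% RPS and at 0.272, 0.853, 0.941, 0.971 and 1.48 CPM on 10% RPS. It was at 0.483, 0.497, 0.583, 0.680 and 2.32 CPM on 2% RPS and at 0.446, 0.563, 0.791, 0.859 and 0.913 CPM on 5% RPS. On 10% RPS mouse RS10_727, the shallowest library, was below every control, while 4 mice were above 4 of the 5 controls. On 2% RPS mouse RS10_715 alone held 63 of the 127 counts. The log2 fold change was 0.95 ± 0.46 at 10% RPS (edgeR unadjusted p = 0.0503, adjusted p = 0.330), 0.60 ± 0.46 at 5% and 0.94 ± 0.45 at 2% RPS (adjusted p = 0.709 and 0.9997), and the last was 0.24 without mouse RS10_715. At 10% RPS it was 0.71 without the 3 mice with disagreeing labels and 0.62 by the treatment label, and the slope of 0.06 per percent RPS was 0.04 and 0.03 in these fits. The log2 ratio of *Ctla4* to *Foxp3* was 0.59 ± 0.18 (SD, n = 5) on 0% RPS and 0.66 ± 0.48 on 10% RPS, a difference of 0.06 (exact permutation p = 0.786, adjusted p = 0.889).

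*Il10*, an anti-inflammatory cytokine of regulatory T cells and other leukocytes, was at 0.142, 0.211, 0.217, 0.222 and 0.327 CPM on 0% RPS and at 0.107, 0.201, 0.232, 0.258 and 0.389 CPM on 2% RPS. It was at 0.223, 0.363, 0.372, 0.431 and 0.431 CPM on 5% RPS and at 0.228, 0.299, 0.353, 0.435 and 0.893 CPM on 10% RPS. On 5% RPS 4 of 5 mice and on 10% RPS 3 of 5 mice were above every control, and mouse RS10_731 stood highest of the 20. The log2 fold change was 0.97 ± 0.37 at 10% RPS (edgeR unadjusted p = 0.0158, adjusted p = 0.219), 0.71 ± 0.37 at 5% RPS (adjusted p = 0.582) and 0.10 ± 0.39 at 2% RPS (adjusted p = 0.9997). Its slope of 0.10 ± 0.03 per percent RPS had the smallest p of the 8 genes (edgeR unadjusted p = 0.00554, adjusted p = 0.0976). The filter on low counts kept *Il10* only through mice on RPS diets, since no control reached its cutoff. These p values are therefore given as a description. Without mouse RS10_731 the fold change at 10% RPS was 0.53. Without the 3 mice with disagreeing labels it was 1.16, and -0.16 at 2% RPS, and by the treatment label it was 1.07 at 10% RPS. Counts were 3 to 23 per mouse.

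Among the 45 pairs of the 10 genes, *Foxp3* and *Ctla4* were the pair that varied together across the 20 mice beyond the adjusted threshold. Pearson's r of log2 CPM was 0.68 (permutation p = 0.00087, adjusted p = 0.0392) and Spearman's rho was 0.75 (adjusted p = 0.012). It was 0.65 without the 2 mice farthest from the median *Foxp3* level. Both genes had a higher mean on 10% RPS, and with the diet means subtracted r was 0.63 with an adjusted permutation p of 0.0515, just past the threshold. After that subtraction *Itgae* with *Ctla4* had an r of 0.66 and the same adjusted p, from an r of 0.43 (adjusted permutation p = 0.311) before it. The closeness of *Foxp3* to *Ctla4* was thus not particular to this pair. Of the 45 correlations 34 were positive, and they ran from -0.44 (*Cd4* with *Il10*) to 0.68. *Foxp3* and *Ctla4* also varied with the 4 pan-leukocyte markers (r = 0.60 and 0.59, permutation p = 0.00509 and 0.00604, adjusted p = 0.0755 for both; rho = 0.68 and 0.67, adjusted p = 0.0255 for both; r = 0.73 and 0.64 without the 2 farthest mice). *Foxp3* varied with the 8 B cell and follicle markers by rank (rho = 0.62, adjusted p = 0.0418), while r was 0.50 (permutation p = 0.0215, adjusted p = 0.119; r = 0.58 without the 2 farthest mice). The pan-leukocyte markers summed to 74.6 to 149 CPM on 0% RPS and to 105 to 148 CPM on 10% RPS, the B cell and follicle markers to 19.6 to 131 and to 84.6 to 147 CPM, and the 4 plasma cell markers to 270.2 to 794 and to 548 to 926 CPM. The part of these cells in the *Foxp3* and *Ctla4* values was not tested.

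**Figure D4:**
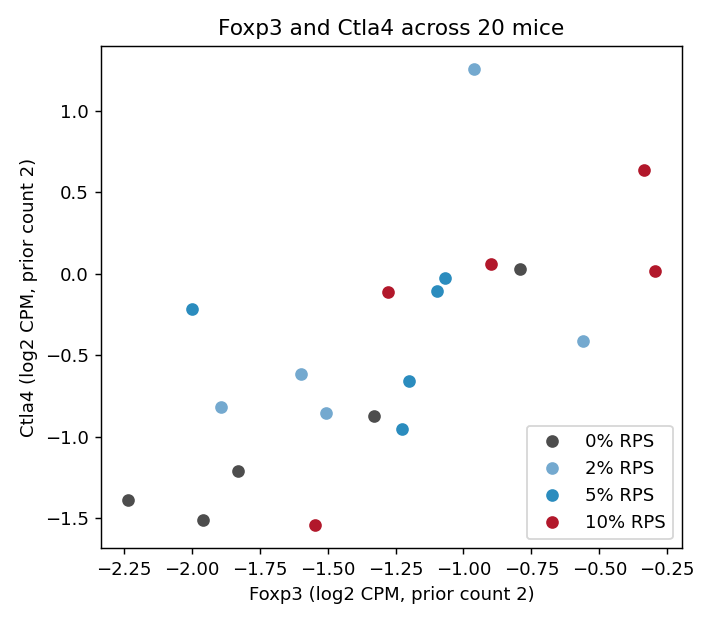
*Ctla4* against *Foxp3* in 20 mice, both as log2 CPM with a prior count of 2, coloured by RPS percent of the diet. The points run from low to high on both axes (r = 0.68), with mouse RS10_715 on 2% RPS highest on *Ctla4*.

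The promoters of this pair are shown because the 2 genes varied together. Both are the 250 bases before the transcription start in the RefSeq table of build GRCm38.p6, on the + strand, at chrX:7579426-7579675 for *Foxp3* (the first of 2 starts listed) and chr1:60908775-60909024 for *Ctla4*. Capitals mark matches, on either strand, to the 5 letters GGAAA at the core of the sites of NFAT, a factor that T cell receptor signals activate.
Foxp3: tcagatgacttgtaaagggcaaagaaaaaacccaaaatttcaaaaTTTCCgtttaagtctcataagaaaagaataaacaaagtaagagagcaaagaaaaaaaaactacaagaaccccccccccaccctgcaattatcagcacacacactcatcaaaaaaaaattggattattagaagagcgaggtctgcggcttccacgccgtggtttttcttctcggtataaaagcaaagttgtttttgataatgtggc
Ctla4: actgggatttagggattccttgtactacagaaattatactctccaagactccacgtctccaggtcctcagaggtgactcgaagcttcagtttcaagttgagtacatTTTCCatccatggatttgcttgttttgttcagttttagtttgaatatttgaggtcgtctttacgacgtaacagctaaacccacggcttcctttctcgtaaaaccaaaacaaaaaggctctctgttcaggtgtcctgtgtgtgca
Each holds 1 such match, which 55.6% of 27025 promoters of that length also hold. Of the 10 genes 7 had a promoter in the table, and 6 of these 7 held GGAAA. The AP-1 motif TGANTCA was in 1 of the 7, that of *Gzmb*, and in 6.87% of all promoters. The forkhead motif TGTTTAC was in 0 of the 7 and in 3.09% of all. For the cyclic AMP response element, TGACGTCA, these were 0 and 1.62%. No motif searched overlapped another in the promoters printed. A match describes letters in this window and no binding was measured.

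Other genes of the same cells and pathways were read from 6 lists, and the result was similar. At 10% RPS edgeR called 0 genes in each of the 6 lists, and the counts at an unadjusted p under 0.05 were as follows. Of 21 tested T cell receptor and signalling genes 1 was higher and 0 lower, with a median log2 fold change of 0.08. Of 15 tested intraepithelial and cytotoxic genes 0 were higher and 1 lower, with a median of -0.09. Of 17 tested regulatory T cell genes 1 was higher and 2 lower, with a median of 0.14. Among 9 helper subset genes 0 had such a p (median -0.03), among 16 ligands, receptors and partners 3 were higher (median 0.06), and among 10 gut homing genes 1 was higher (median 0.15). Over all 17893 tested genes 1310 were higher and 1408 lower at that p, and the median was -0.01.

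Named by the smallest trend p in each list, *Cd3g* and the costimulatory receptor *Cd28* had log2 fold changes of 0.59 ± 0.26 and 0.62 ± 0.31 at 10% RPS (edgeR adjusted p = 0.3005 and 0.352). In the cytotoxic list *Cd7*, a lymphocyte surface protein, was at 1.22 ± 0.652 CPM (SD, n = 5) on 0% RPS and 0.698 ± 0.166 CPM on 10% RPS, and *Nkg7*, a granule protein, at 0.841 ± 0.314 and 0.537 ± 0.163 CPM (adjusted p = 0.320 and 0.436). In the regulatory T cell list the 2 leading genes had opposite signs. *Itgb8*, an integrin chain that activates latent transforming growth factor beta, was at 5.12 ± 2.29 CPM on 0% RPS and 2.58 ± 0.509 CPM on 10% RPS (log2 fold change -0.99 ± 0.30, adjusted p = 0.122). *Il1rl1*, the interleukin 33 receptor, which marks a group of colonic regulatory T cells and also mast cells, was at 2.02 ± 0.849 CPM on 0% RPS and 6.04 ± 1.74 CPM on 10% RPS (1.58 ± 0.57, adjusted p = 0.201). The 5 mast cell and granulocyte markers summed to 0.794 to 1.77 CPM on 0% RPS and 1.07 to 2.78 CPM on 10% RPS, and their part in *Il1rl1* was not tested.

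In the helper list *Stat4* and *Bcl6*, which act in type 1 and follicular helper cells, had log2 fold changes of 0.52 ± 0.36 and 0.18 ± 0.18 at 10% RPS (edgeR adjusted p = 0.518 and 0.673). Among ligands and partners *H2-K1*, a class I antigen that presents peptides to CD8 T cells, had a slope of 0.03 ± 0.01 per percent RPS that passed the adjusted p (0.0300), which alone decides for the trend, from 628 ± 49.3 CPM on 0% RPS to 776 ± 73.9 CPM on 10% RPS. It was 1 of the 16 tested genes of this list, with 0 called for the trend in the other lists, where 2.1% of all tested genes were called. By the treatment label the trend test called 0 of 17893 genes, so *H2-K1* was not called there. Class I genes are near-identical copies, so its reads may be shared with others. *Stat3*, which relays the interleukin 10 receptor, followed with a slope of 0.02 ± 0.01 (adjusted p = 0.165). In the gut homing list *Ccl20*, a chemokine of the epithelium, and *Gpr15lg*, the ligand of the colon homing receptor GPR15, had log2 fold changes of 0.42 ± 0.25 and 0.20 ± 0.08 (adjusted p = 0.430 and 0.253).

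**Figure D5:**
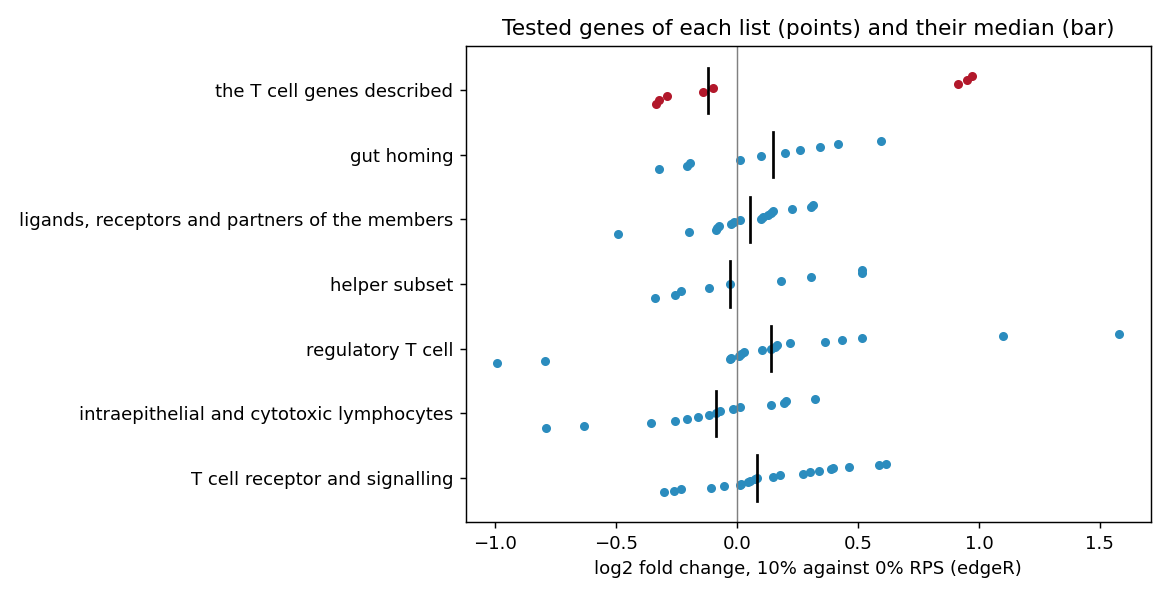
Log2 fold change at 10% against 0% RPS (horizontal axis, edgeR) of the tested genes of 6 lists and of the 8 tested T cell genes described (points), with each list's median (bars). The T cell genes fall apart, with *Foxp3*, *Ctla4* and *Il10* at 0.91 to 0.97 and the other 5 between -0.34 and -0.10.

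The genes whose log2 CPM was most like that of 4 members over the 20 mice, out of 15232 tested genes that averaged 1 CPM or more, are given as a description with no test. For *Cd3e* they were *Ift140*, *Ift80* and *Agbl5* (r = 0.83, 0.79 and 0.77). For *Cd8a* they were the immunoglobulin segment *Igkv4-72*, the T cell kinase *Lck* and *Dlg5* (r = 0.72, 0.70 and 0.69). *Gzma* was most like *Gm15663*, *Smarca2* and *Zmym6* (r of 0.70 for all 3), in which the 6 mice at 0 counts share 1 low value. For *Foxp3* the lambda light chain genes *Iglv1* and *Iglc1* came first (r = 0.81 for both), then *Btnl2* (r = 0.80), a butyrophilin-like gene. Of these 12 genes *Lck* is the one in the T cell lists.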

How the data were processed

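Messenger RNA of the distal colon of 20 C57BL/6 mice was sequenced from stranded TruSeq libraries. The authors trimmed reads, mapped them to GRCm39 and counted them per gene in CLC Genomics Workbench, and the deposited values are those whole-number counts. The strand setting, the annotation release and the treatment of reads with several matches are not given in the sources used here. Of 26619 gene identifiers, 26338 matched GENCODE release M39, which gave symbols, positions and exon lengths.

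Groups came from the description label. edgeR 4.0.16 (R 4.3.3) was run over all 4 diets in a single fit, with filterByExpr at a minimum count of 10, TMM scaling, robust quasi-likelihood tests and Benjamini-Hochberg adjustment, and it was tested on simulated data. DESeq2 1.42.0, RLE scaling, library sizes without immunoglobulin genes, no filter, a fit of the 2 diets compared, the treatment label, the omission of the 3 mice with disagreeing labels and of each mouse in turn were tried as alternatives. CPM used the TMM-scaled library sizes. Ratios were tested by exact permutation over mice and correlations with 100000 permutations. Genes other than the 10 were named when they had the 2 smallest trend p of their list, when they were called, or when they were the 3 most like *Cd3e*, *Cd8a*, *Gzma* or *Foxp3*. The members and lists were chosen with earlier results of these data known. Replicate libraries of a diet differed beyond counting error in all 40 pairs (chi-square per degree of freedom 9.10 to 62.9). Each library came from 1 mouse, and depth limits the rarest genes to a few counts.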

Additional observations from a re-analysis of the deposited data

Results flagged for a closer look

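In groups of 5 mice, 7 of 60 tests found a mouse far from the other 4, where chance flags about 1 in 20, or 3 of 60. The ratios reuse values of the genes, so the tests are not independent, and 7 against 3 does not measure an excess. Mouse RS10_715 on 2% RPS held 2.32 CPM of *Ctla4* (next highest 0.680) and 0.479 CPM of *Gzmb* (next 0.199). Mouse RS10_727 on 10% RPS held 0.163 CPM of *Gzma*, from 3 counts (next 0.0427), and a log2 ratio of *Gzma* to *Gzmb* of 0 where the next was -1.63. Mouse RS10_721 on 5% RPS, the library with the most pancreatic RNA, was lowest of its diet in *Foxp3* at 0.180 CPM (next 0.357). The library of mouse RS10_784 on 10% RPS, next in such RNA, held 0.745 CPM of *Foxp3*, the highest of the 20. Mouse RS10_704 on 0% RPS was lowest in *Il2ra* at 1.15 CPM (next 1.55). Mouse RS10_725, whose labels disagree, was lowest on 10% RPS in the log2 ratio of *Itgae* to *Cd3e* at 1.44 (next 1.83).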

How the results depend on the processing

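Under every alternative that was run, 0 of the genes it fitted were called in the comparisons it gave, and 0 of the 15 ratios passed. A lone ratio at the smallest exact permutation p that the mice allow has an adjusted p of 0.119, so it could not pass by itself. DESeq2 and the fit without the filter gave values for all 10 genes, the other fits over the 4 diets for 8. Of 20 single-mouse omissions, 0 gave a call of a member. At 10% RPS these omissions called from 5 of 18084 tested genes (without RS10_784) to 188 of 18096 (without RS10_727). The fit by the treatment label called 0 of 17893 there, that without the 3 mice with disagreeing labels 0 of 17928, and that of the 2 diets 3 of 17271. With so few calls over all genes, the absence of a call says little about the members. *Foxp3*, *Ctla4* and *Il10* kept a positive log2 fold change at 10% RPS in every fit that gave one (0.61 to 1.25, 0.62 to 1.36 and 0.53 to 1.16). The fit of the 2 diets compared covers the 3 comparisons with 0% RPS. At 10% and at 2% RPS it gave no value for *Foxp3* and *Il10*, beyond *Gzma* and *Gzmb*, since its filter left 6 members. For *Foxp3* at 10% RPS the edgeR adjusted p ran from 0.1003 to 0.632, for *Il10* from 0.175 to 0.549, and DESeq2 gave none for either.

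The correlation of *Foxp3* with *Ctla4* was the 1 pair of 45 that passed. With the diet means subtracted 0 pairs passed, and with each mouse left out 0 to 1 did, the r staying at 0.63 to 0.75.

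Some small differences changed sign. Without the 3 mice with disagreeing labels, *Il10* at 2% RPS was -0.16, and the log2 ratios were -0.00729 for *Cd8a* to *Cd4* at 5%, -0.062 for *Itgae* to *Cd3e* at 2% and -0.0105 for *Ctla4* to *Foxp3* at 10% RPS. With each mouse left out, the log2 fold change of *Cd4* at 10% RPS ran from -0.25 to 0.059 and its slope from -0.023 to 0.00707. *Cd8a* ran from -0.57 to 0.027 at 10% and from -0.23 to 0.41 at 2%. *Cd3e* ran from -0.30 to 0.0015 at 5% and from -0.36 to 0.018 at 2%. *Il10* at 2% ran from -0.16 to 0.28. The ratio of *Cd8a* to *Cd4* ran from -0.063 to 0.64 at 2%, from -0.24 to 0.47 at 5% and from -0.45 to 0.26 at 10%. That of *Itgae* to *Cd3e* ran from -0.14 to 0.17 at 2% and from -0.17 to 0.036 at 5%, and that of *Ctla4* to *Foxp3* at 10% from -0.052 to 0.23. The cause was not tested. No paired analysis was possible because each mouse number belongs to 1 mouse.

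With 5 to 19 counts of *Foxp3* and 3 to 23 of *Il10* per mouse, the variance within a diet was 1.92 and 1.96 times that of counting alone, so depth limits both. *Gzma* at 0 to 11 counts allows no firm value.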
